A study of Mus musculus with 12 samples.

Results

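Phosphatidylcholine and phosphatidylethanolamine are the main phospholipids of liver cell membranes, bile and secreted lipoproteins, and 10 genes that encode enzymes of their synthesis were followed here in mouse liver. The 10 were chosen by name for their enzyme reactions, with earlier results of these data known. They are Pemt, Pcyt1a, Pcyt2, Chka, Chkb, Chpt1, Cept1, Etnk1, Etnk2 and Ptdss1. All 10 were among the 24062 genes of the deposited counts, and all 10 passed the filter on low counts that left 12015 genes for testing. The libraries came from livers of male mice aged 14 weeks, on a mixed 129SvEV-C57BL/6 background, and all carried floxed Nr5a2 per the labels. Nr5a2 encodes LRH-1, a nuclear receptor of the liver. Libraries labelled knockout came from mice given AAV8-Cre, a hepatocyte-reaching adeno-associated virus that carries Cre recombinase, and controls were floxed mice (F/F) that, per the series' text, received AAV8-eGFP. The promoter that drives Cre is not given in the sources used here. Mice ate a standard diet (SD, 3 control libraries and 3 labelled knockout) or the high-fat diet D12492 (HFD, 4 control libraries and 2 labelled knockout) for 6 weeks.

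The liver makes phosphatidylcholine by separate routes. In the choline branch, choline is phosphorylated by choline kinases (Chka, Chkb), activated to CDP-choline by the cytidyltransferase Pcyt1a, which is the regulated step, and joined to diacylglycerol by Chpt1 or Cept1. The ethanolamine branch runs in parallel through ethanolamine kinases (Etnk1, Etnk2), the cytidyltransferase Pcyt2 and Cept1, and yields phosphatidylethanolamine. Pemt connects the branches: it methylates phosphatidylethanolamine to phosphatidylcholine with S-adenosylmethionine as the methyl donor, a route known mainly from hepatocytes. Ptdss1 exchanges the choline of phosphatidylcholine for serine and so feeds phosphatidylserine, which can be decarboxylated to phosphatidylethanolamine.

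SD libraries held 2371167 to 3404570 counts in all and those of HFD 7463792 to 10875478, so diet and sequencing depth cannot be told apart. Nr5a2 itself was not lower in the libraries labelled knockout. Its level in CPM (counts divided by the normalized library size and scaled to the same total) was 84.4, 74.8 and 85.8 in controls on SD, against 95.3, 100.1 and 94.7 in SD libraries labelled knockout. On HFD the controls held 77.0, 74.5, 64.3 and 66.8 CPM and the libraries labelled knockout 69.1 and 84.5. A count over the whole gene does not show which exons were read, and the directions given below rest on the labels. All 6 hepatocyte markers examined were present in every group, with a summed level of 105667 to 134797 CPM in SD controls, 100140 to 151794 in SD libraries labelled knockout, 102809 to 107180 in HFD controls, and 122025 and 168809 in HFD libraries labelled knockout. Whether each library is a mouse of its own is not spelled out in the labels, and p-values therefore reflect only how much these libraries vary.

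Per length, Pemt was the most abundant of the 10 transcripts. In SD controls its mean was 44.4 CPM per kilobase of exon, with a range of 40.1 to 47.6 that lay above every other member. Etnk2 (21.6), Pcyt1a (19.7) and Chpt1 (16.9) followed, and the range of each overlapped the next. Ptdss1 (9.40) and Etnk1 (8.39) also overlapped each other, Cept1 (7.10) and Pcyt2 (4.96) came next without overlap, and the choline kinases Chkb (1.31 to 1.79) and Chka (0.863 to 0.974) were lowest. In SD libraries labelled knockout, Pemt (at most 21.5 CPM per kilobase) no longer stood apart, since Chpt1 spanned 16.9 to 21.1. In both HFD groups Pemt was again above all other members, at a mean of 53.9 CPM per kilobase in controls and 37.0 in libraries labelled knockout. The choline kinases stayed the lowest pair in each group. Pemt kept the highest rank in each group when levels were divided by the longest transcript in place of all exons, while the ranks of Ptdss1, Etnk1, Cept1 and Pcyt2 and the order of Chka and Chkb in SD controls depended on that choice. The overlap of Pemt with Chpt1 in SD libraries labelled knockout also depended on it. Per kilobase of longest transcript, Pemt averaged 44.0 CPM there and Chpt1 32.0.

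**Figure D1:**
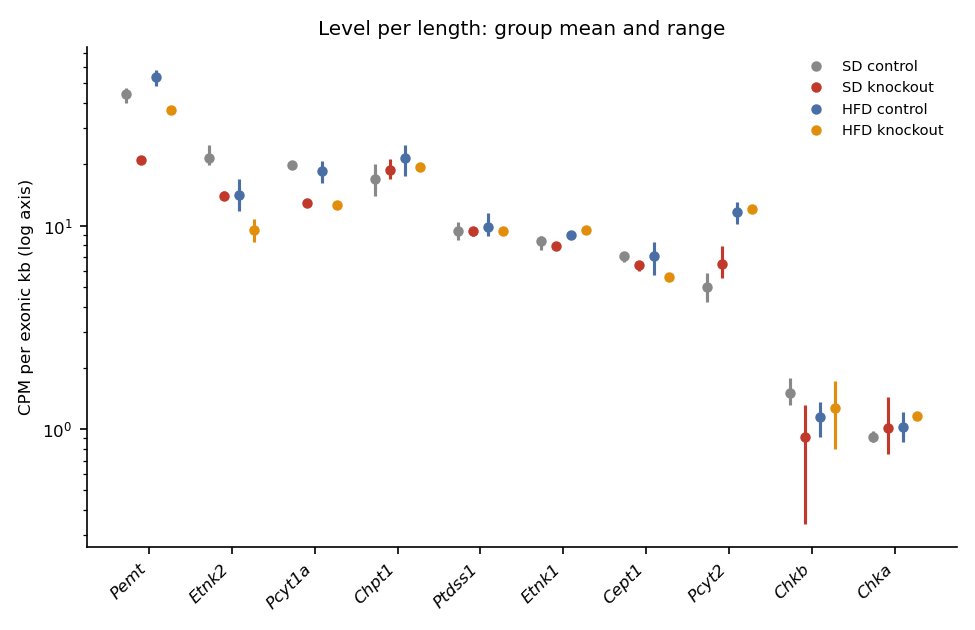
Level of each member per kilobase of exon (CPM per kilobase, logarithmic axis) in the 4 groups, with points for group means and bars for the lowest and highest library. Pemt is highest in each group, and Chka and Chkb are lowest.

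The transcript of Pemt, the enzyme of the methylation route, was lower in libraries labelled knockout on both diets. In controls on SD, Pemt measured 84.4, 100.1 and 95.8 CPM, and in SD libraries labelled knockout 45.3, 42.0 and 44.9. The groups did not overlap, and every library labelled knockout was below every control. Pemt fell by 1.08 on the log2 scale (SE 0.11, 95% interval -1.32 to -0.85, edgeR adjusted p = 7.25e-05), which is 2.12-fold lower. On HFD the controls held 101.5, 115.1, 114.5 and 122.6 CPM and the libraries labelled knockout 78.8 and 77.1. These groups did not overlap either, and Pemt fell by 0.54 (SE 0.11, adjusted p = 0.0126), which is 1.45-fold lower. In bulk liver RNA, fewer cells of a type and less RNA per cell cannot be told apart.

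In the choline branch Pcyt1a, the regulated step, fell on both diets, and no other enzyme of the branch passed the test. Pcyt1a, the CTP:phosphocholine cytidyltransferase, measured 152.7, 144.3 and 141.9 CPM in SD controls, against 92.7, 100.5 and 93.3 in SD libraries labelled knockout. The HFD values were 119.6, 139.2, 137.1 and 153.4 CPM in controls, and 95.5 and 92.1 in libraries labelled knockout. The groups did not overlap on either diet, and the libraries labelled knockout overlapped between SD and HFD. Pcyt1a fell by 0.62 on SD (SE 0.11, adjusted p = 0.00352) and by 0.55 on HFD (SE 0.11, adjusted p = 0.0126), or 1.53-fold and 1.46-fold lower. In the GRCm38 annotation 567 exonic bases of Pcyt1a overlap Slc51a on the other strand, and Slc51a was at 0 to 0.610 CPM in these libraries.

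Chka, a choline kinase, was at 10.4 to 11.7 CPM in SD controls, 9.1 to 17.3 in SD libraries labelled knockout, 10.4 to 14.5 in HFD controls, and 13.4 and 14.5 in HFD libraries labelled knockout, and the groups overlapped. Its log2 differences were 0.16 on SD (SE 0.25) and 0.18 on HFD (SE 0.20). Chpt1, the cholinephosphotransferase that completes the branch, spanned 115.7 to 166.4 and 141.1 to 176.0 CPM on SD and 145.7 to 206.0 and 156.1 to 167.6 on HFD, so it overlapped on both diets. Its log2 differences were 0.14 on SD (95% interval -0.17 to 0.46) and -0.14 on HFD (-0.46 to 0.18). In the GRCm38 annotation Chpt1 shares 660 exonic bases with Sycp3 on the other strand, and Sycp3 was at 4.86 to 12.7 CPM. Chkb, the other choline kinase, rested on few counts: 14, 10 and 14 in SD controls, and 10, 10 and 3 in SD libraries labelled knockout. Its SD difference of -0.72 had a 95% interval of -1.71 to 0.26 (adjusted p = 0.461), so the interval holds both a fall of that size and no change. HFD controls held 31, 31, 28 and 32 counts of Chkb (2.8 to 4.2 CPM) and libraries labelled knockout 38 and 22 (5.3 and 2.5 CPM), with a log2 difference of 0.13 (SE 0.36). In the GRCm38 annotation Chkb also shares 1552 exonic bases with another protein-coding gene on the same strand. Whether this affected its counts, which the authors made on another build, was not tested.

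In the ethanolamine branch Etnk2 fell on SD, and no other enzyme of the branch passed a knockout comparison. Etnk2, an ethanolamine kinase known to be abundant in liver, measured 91.0, 113.3 and 90.9 CPM in SD controls, against 61.7, 67.2 and 61.3 in SD libraries labelled knockout, without overlap. It fell by 0.63 (SE 0.15, adjusted p = 0.0272), or 1.55-fold lower. On HFD the controls were at 53.7, 68.5, 77.6 and 58.9 CPM and the libraries labelled knockout at 38.1 and 49.0, again without overlap. The HFD difference of -0.57 (SE 0.16) had nearly the SD size but an adjusted p of 0.0701. Etnk1, the more widely expressed kinase, was at 107.7 to 125.4 CPM in SD controls and 108.5 to 115.3 in SD libraries labelled knockout, with a log2 difference of -0.08 (95% interval -0.28 to 0.13). Its HFD libraries labelled knockout, at 130.9 and 137.7 CPM, overlapped the controls at 122.7 to 132.7, and the log2 difference was 0.08 (-0.12 to 0.29).

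Pcyt2, the CTP:phosphoethanolamine cytidyltransferase that sets the pace of the ethanolamine branch, did not pass on either diet. It measured 18.4, 25.3 and 21.1 CPM in SD controls, against 24.0, 34.4 and 25.8 in SD libraries labelled knockout. The groups overlapped, and the log2 difference of 0.37 (SE 0.17) had an adjusted p of 0.279. On HFD the controls were at 56.7, 48.5, 53.2 and 44.1 CPM and the libraries labelled knockout at 54.6 and 50.1. The log2 difference there was 0.05 (95% interval -0.26 to 0.35), with the libraries labelled knockout inside the control range. Cept1, which serves both branches, was at 20.7 to 23.2 CPM in SD controls and 18.7 to 20.8 in SD libraries labelled knockout. On HFD both libraries labelled knockout, at 17.4 and 17.3 CPM, were just below the controls at 17.9 to 25.9, with a log2 difference of -0.35 (SE 0.16, adjusted p = 0.338). Ptdss1 had the smallest SD difference of the 10, a log2 value of 0.00 (95% interval -0.29 to 0.29), with 36.6 to 44.5 CPM in SD controls and 38.0 to 42.4 in SD libraries labelled knockout. On HFD it spanned 38.0 to 49.5 CPM in controls, around the 38.4 and 42.3 of the libraries labelled knockout, with a log2 difference of -0.06 (95% interval -0.33 to 0.21).

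**Figure D2:**
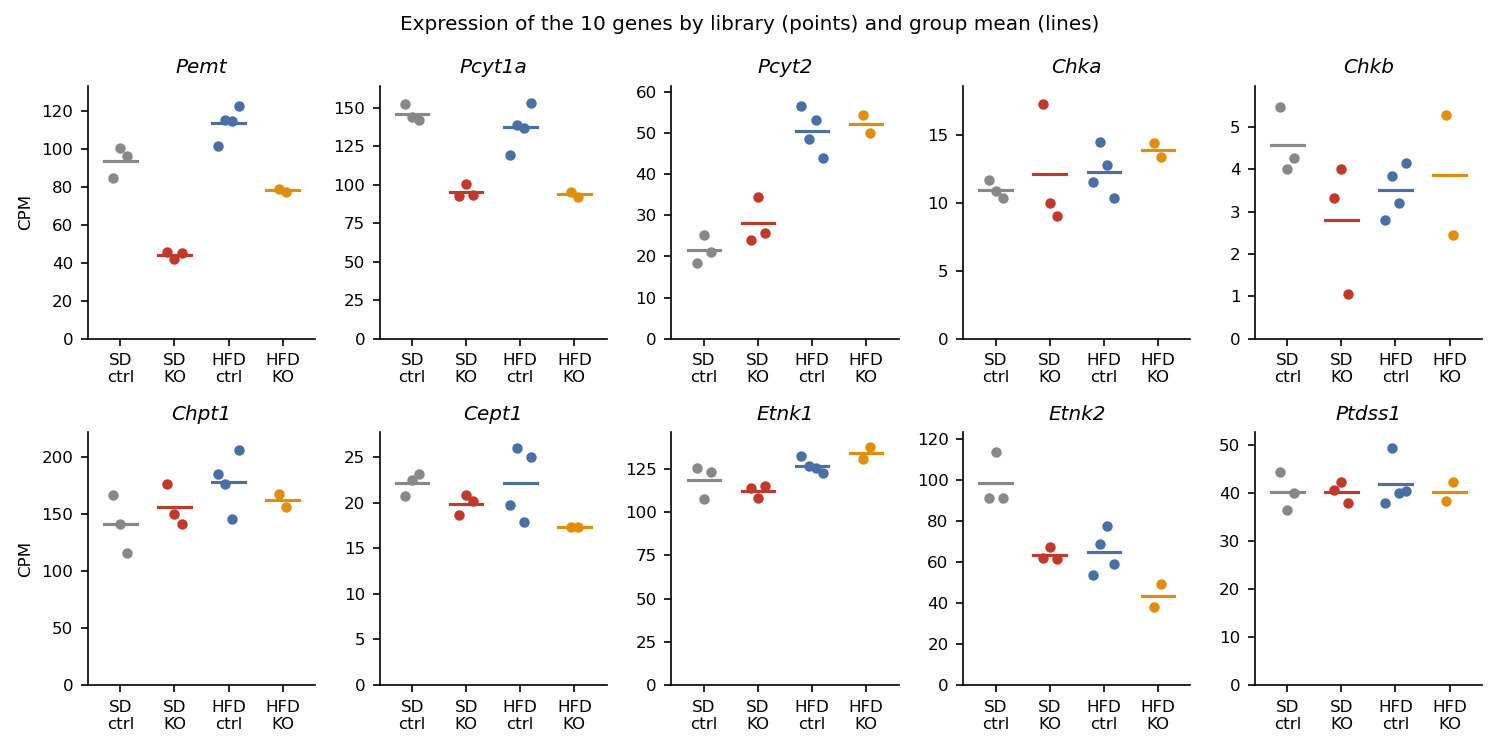
Level of each member in CPM (axes from 0) in every library, as points, with lines for the group mean (ctrl, control; KO, labelled knockout; SD, standard diet; HFD, high-fat diet). Pemt and Pcyt1a are lower in every library labelled knockout than in any control of the same diet, and Pcyt2 is higher in HFD than in SD libraries.

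The stretches just upstream of the start sites of Pemt, Pcyt1a and Etnk2 are shown because these 3 genes fell together. They are the 250 bases before a RefSeq start site in build GRCm38.p6, printed 5′ to 3′ along the gene. Start sites were kept where a stretch shortly after the start is found in a GENCODE transcript of the gene. Their upstream bases also hold no annotated exon. The very first transcribed bases were not compared, so the exact start was not checked. Capitals mark GC boxes, that is the letters GGGCGG on either strand, with overlapping matches counted separately.
Pemt, chr11:60037006-60037255, minus strand: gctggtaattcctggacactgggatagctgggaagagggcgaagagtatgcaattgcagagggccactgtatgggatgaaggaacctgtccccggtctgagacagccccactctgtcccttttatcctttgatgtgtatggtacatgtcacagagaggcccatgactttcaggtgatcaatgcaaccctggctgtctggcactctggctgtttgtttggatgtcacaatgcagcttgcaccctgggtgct
Pcyt1a, chr16:32430671-32430920, plus strand: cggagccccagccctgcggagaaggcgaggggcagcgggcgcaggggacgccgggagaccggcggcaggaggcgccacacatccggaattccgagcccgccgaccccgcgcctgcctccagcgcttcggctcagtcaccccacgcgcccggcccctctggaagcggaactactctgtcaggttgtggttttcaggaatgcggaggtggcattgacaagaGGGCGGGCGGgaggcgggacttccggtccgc
Etnk2, chr1:133363322-133363571, plus strand: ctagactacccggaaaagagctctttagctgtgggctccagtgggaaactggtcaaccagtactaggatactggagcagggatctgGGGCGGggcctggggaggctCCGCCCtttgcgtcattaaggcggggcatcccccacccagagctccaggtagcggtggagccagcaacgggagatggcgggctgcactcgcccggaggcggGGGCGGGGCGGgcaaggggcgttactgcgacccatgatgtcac
The Pemt stretch held no GC box and had 52.8% G and C, against 71.6% for Pcyt1a with 2 overlapping GC boxes and 65.2% for Etnk2 with 4. Of all 32851 promoters of the same table, taken as 250 bases before to 50 after the start, 35.7% held a GC box, and so did 9 of the 13 such windows of the 8 members with an entry, neither of the Pemt windows among them. The letters CAAGGNCA, the core of the extended half-site to which LRH-1 binds, were searched on both strands. They were in none of the 13 start-site windows of those 8 members and in 6.71% of all promoters. GC boxes were chosen after the sequences were seen, and Pcyt2 and Ptdss1 had no entry.

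The members were chosen with earlier results of these data known, so the shares that follow are a description and do not test the pathway. On SD, 3 of the 10 members fell (Pemt, Pcyt1a, Etnk2) and 0 rose, against 2.94% of all tested genes called lower and 1.44% called higher. On HFD, 2 of 10 fell (Pemt, Pcyt1a) and 0 rose, against 1.66% lower and 1.04% higher. With the diets weighted equally, 3 fell and 0 rose, against 5.36% and 3.00%. In that mean Pemt fell by 0.81 (SE 0.08, adjusted p = 9.67e-06), Etnk2 by 0.60 (SE 0.11, adjusted p = 0.00268) and Pcyt1a by 0.58 (SE 0.08, adjusted p = 0.000189). The groups did not overlap for 4 of 10 members on SD (these 3 and Chkb) and for 4 of 10 on HFD (these 3 and Cept1), against 22.6% and 22.2% of all tested genes. The median log2 difference of the 10 was -0.12 on SD and -0.10 on HFD, against 0.00 and -0.01 over all tested genes. The knockout comparisons of the diets share no library, but they share the filter on low counts, the normalization and the estimate of the spread.

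**Figure D3:**
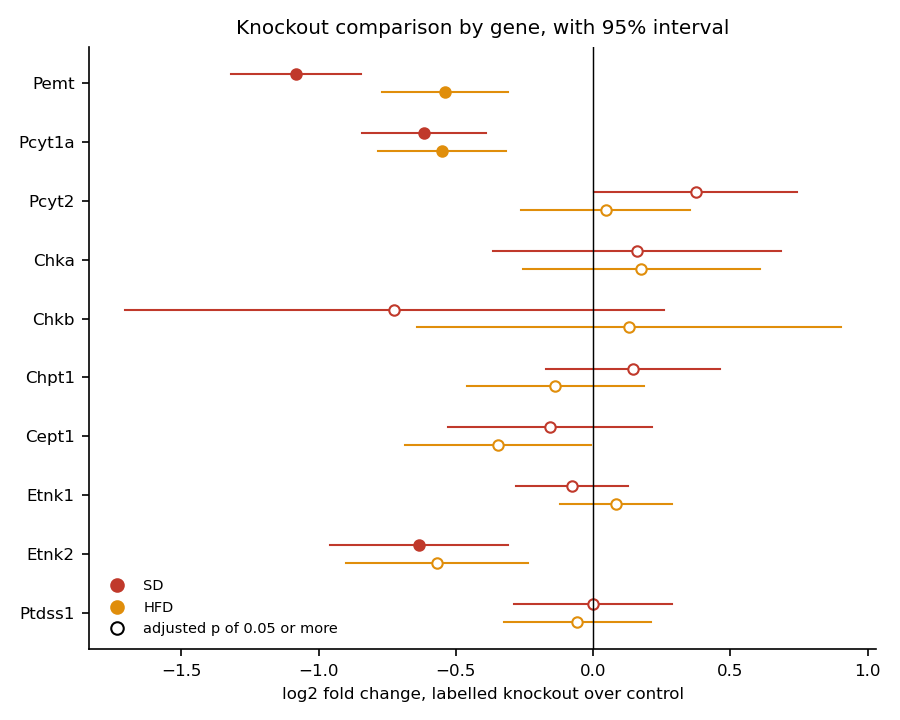
Log2 fold change of each member, libraries labelled knockout over controls, on SD and on HFD, with 95% intervals. Filled points passed at an adjusted p under 0.05: Pemt and Pcyt1a on both diets and Etnk2 on SD.

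These calls differ in how much they rest on single libraries. On HFD, where 2 libraries were labelled knockout, the call was lost without the first of them for Pemt (adjusted p = 0.111) and Pcyt1a (0.0960) and without the second (0.0894 and 0.0945), at log2 values of -0.57 to -0.52. Both were also lost when only the HFD groups were fitted (adjusted p = 0.0551 and 0.0655). The SD call of Etnk2 was lost when any SD library other than the first control was left out, with the highest adjusted p, 0.112, without the second control. Summed stellate cell markers, which are 5 genes none of which was at 0 throughout a group, were 320 to 378 CPM in SD controls and 416 to 453 in SD libraries labelled knockout. On HFD they were 245 to 365 CPM in controls, and 359 and 408 in libraries labelled knockout. Of these 5, Col1a2 and Reln were called higher in the mean over the diets, and of the 6 hepatocyte markers Ttr was called higher on HFD. Summed cholangiocyte markers, also 5 genes present in every group, were 50.6 to 53.9 and 64.7 to 197 CPM on SD, and 27.4 to 105 and 88.4 to 99.6 on HFD. Endothelial markers summed to 180 to 254 and 213 to 247 CPM on SD, and to 161 to 197 and 198 to 208 on HFD, Kupffer cell markers overlapped on both diets, and lymphocyte markers stayed at or below 4.91 CPM. The part of these cell types in the falls of Pemt, Pcyt1a and Etnk2 was not tested.

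The fall of Pemt was larger on SD than on HFD by 0.54 on the log2 scale (SE 0.15, 95% interval 0.22 to 0.87), but this difference of the effects had an unadjusted p of 0.00280 and an adjusted p of 0.440 in edgeR and did not pass. For Pcyt1a the effects on the diets differed by 0.07 (95% interval -0.25 to 0.39) and for Etnk2 by 0.07 (-0.39 to 0.53). Chkb had the widest interval of the 10, around 0.85 with an SE of 0.59. None of the 10 members passed this test, against 0% of all tested genes called in either direction. Of all tested genes, 911 had an unadjusted p under 0.05, and DESeq2 called 30.

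Ratios within a library do not depend on how libraries are scaled, and they are given as a description, with no test. The log2 ratio of the Pemt count to the geometric mean of the ethanolamine branch (Etnk1, Etnk2, Pcyt2) was 0.51, 0.57 and 0.63 in SD controls and -0.29, -0.59 and -0.34 in SD libraries labelled knockout. On HFD it was 0.46 to 0.84 in controls, and 0.28 and 0.15 in libraries labelled knockout. The balance of Pemt to the ethanolamine branch was thus lower in every library labelled knockout than in any control of its diet, by 0.97 on SD and 0.39 on HFD as a difference of means. Against the choline branch (Chka, Chkb, Pcyt1a, Chpt1) the ratio was 1.24, 1.71 and 1.71 in SD controls and 0.54, 0.59 and 1.26 in SD libraries labelled knockout, where library 3 overlapped the lowest control. That library held 3 counts of Chkb. With Chkb left out, the SD groups did not overlap, at 0.34, 0.73 and 0.79 in controls and -0.53, -0.34 and -0.13 in libraries labelled knockout. On HFD the ratio with Chkb kept was 1.75 to 1.93 in controls, and 1.25 and 1.56 in libraries labelled knockout, without overlap. With Chkb left out, the HFD values were 0.68 to 0.85, and 0.36 and 0.42.

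The regulated enzymes of the routes were also set against each other. The log2 ratio of Pemt to Pcyt1a was -0.86, -0.53 and -0.57 in SD controls and -1.03, -1.26 and -1.05 in SD libraries labelled knockout, so Pemt was lowered more than Pcyt1a. On HFD it was -0.32 to -0.24 in controls, and -0.28 and -0.26 in libraries labelled knockout, inside the control range, so both genes were lower in proportion. Whether this ratio responds differently on the diets was not tested. The ratio of Pcyt2 to Pcyt1a, the ethanolamine against the choline cytidyltransferase, was -3.06, -2.51 and -2.75 in SD controls and -1.95, -1.55 and -1.86 in SD libraries labelled knockout. On HFD it was -1.08, -1.52, -1.37 and -1.80 in controls, and -0.81 and -0.88 in libraries labelled knockout. It was higher in every library labelled knockout than in any control of its diet, by 0.99 on SD and 0.60 on HFD, with the fall of Pcyt1a in its denominator.

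**Figure D4:**
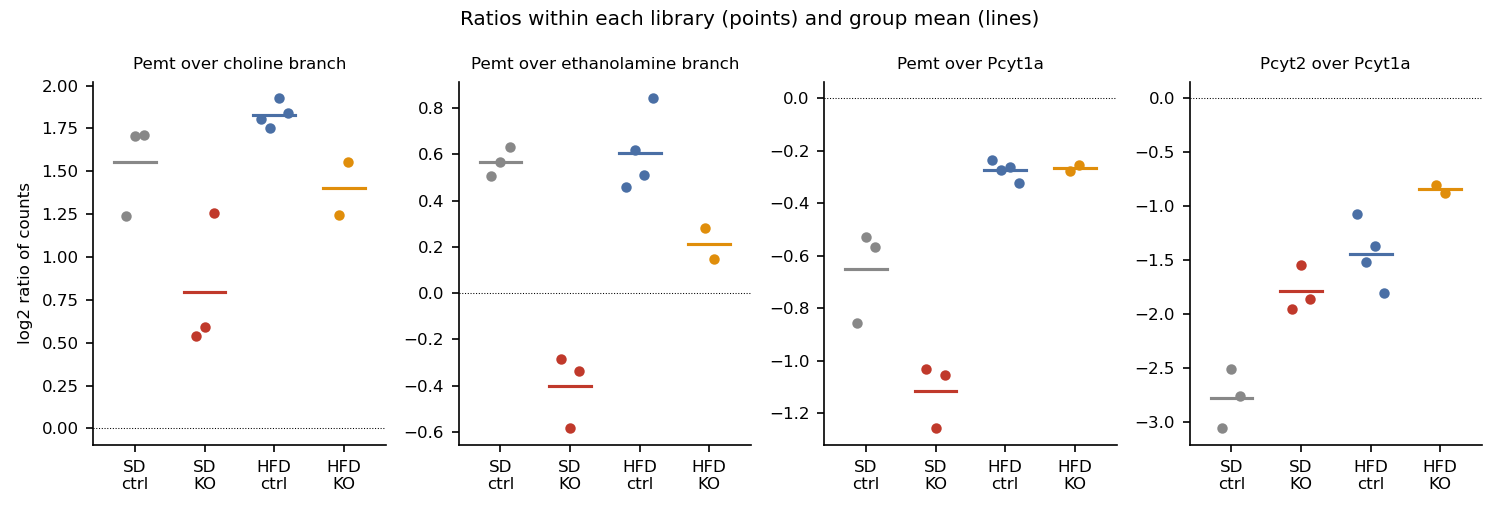
Log2 ratio of counts within each library for Pemt over the choline branch, Pemt over the ethanolamine branch, Pemt over Pcyt1a and Pcyt2 over Pcyt1a, with points for libraries and lines for group means. Pemt over Pcyt1a is lower in SD libraries labelled knockout than in SD controls, and the HFD libraries labelled knockout, at -0.28 and -0.26, lie inside the HFD control range.

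Between the diets, the cohorts of which also differed in depth, Pcyt2 had the largest difference of the 10. It rose 2.35-fold from SD to HFD controls (log2 1.23, SE 0.15, adjusted p = 1.64e-05) and 1.87-fold in libraries labelled knockout (log2 0.91, SE 0.17, adjusted p = 0.000863). The SD libraries, at 18.4 to 34.4 CPM, all lay below the HFD libraries, at 44.1 to 56.7. Etnk2 fell by 0.60 in controls (SE 0.14, adjusted p = 0.00318) and by 0.54 in libraries labelled knockout (SE 0.17, adjusted p = 0.0279), opposite to Pcyt2. Etnk1, the other kinase of the branch, had log2 values of 0.09 in controls (adjusted p = 0.453) and 0.25 in libraries labelled knockout (adjusted p = 0.0829) and did not pass. Pemt rose by 0.28 in controls (SE 0.10, adjusted p = 0.0391) and by 0.82 in libraries labelled knockout (SE 0.12, adjusted p = 9.64e-05). Pcyt1a, at -0.09 in controls (adjusted p = 0.510) and -0.03 in libraries labelled knockout (adjusted p = 0.898), did not pass. Chpt1, at 0.34 in controls (adjusted p = 0.0756) and 0.06 in libraries labelled knockout (adjusted p = 0.836), did not pass either.

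In controls 2 members rose and 1 fell between the diets, against 16.5% and 13.6% of all tested genes, and in libraries labelled knockout 2 rose and 1 fell, against 14.9% and 11.7%. These comparisons share their libraries with the knockout comparisons. The rise of Pemt in controls was lost in several alternative fits, with adjusted p of 0.0502 without the filter on low counts, 0.0552 with DESeq2, 0.0579 after thinning and 0.0706 with only the groups compared. It also did not pass without any one of 5 of the 7 control libraries, up to an adjusted p of 0.133 without the first SD control. Between the diets in libraries labelled knockout, the call of Etnk2 was lost after thinning all libraries to 1 depth (adjusted p = 0.102), without any one of the SD libraries, and without the first HFD library, where it was -0.36 (adjusted p = 0.251).

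Other genes that supply, export or turn over these phospholipids were listed by function, with earlier results of these data known. Counts and shares given for these lists are thus a description. Of 37 reported, 33 passed the filter. On SD, 2 of the 33 rose and 6 fell, on HFD 1 rose and 6 fell, and in the mean over the diets 1 rose and 9 fell. The shares of all tested genes were 1.44% higher and 2.94% lower on SD, 1.04% and 1.66% on HFD, and 3.00% and 5.36% in the mean. Their median log2 difference was -0.13 on SD and -0.04 on HFD. None of the 3 tested members of the remaining synthesis enzymes passed: Selenoi, an ethanolaminephosphotransferase, Ptdss2, the other phosphatidylserine synthase, and Pisd, the phosphatidylserine decarboxylase, had SD log2 values of 0.03, 0.56 and -0.78. Of 4 tested choline uptake genes, 2 fell on SD and 0 on HFD, against 2.94% and 1.66% of all tested genes. Slc44a1, a choline transporter, was at 57.8, 63.9 and 64.4 CPM in controls and 36.3, 31.2 and 23.7 in libraries labelled knockout (2.04-fold lower, adjusted p = 0.000645). Slc44a3 of the same family was 2.60-fold lower (adjusted p = 0.0144). On HFD, Slc44a1, at a log2 value of -0.37, had an adjusted p of 0.201. Slc44a3 did not overlap on HFD, at 12.3, 7.20, 8.47 and 7.93 CPM in controls and 4.59 and 4.46 in libraries labelled knockout, but its adjusted p was 0.0592. In the mean over the diets Slc44a1 fell by 0.70 (adjusted p = 0.000339) and Slc44a3 by 1.19 (adjusted p = 0.00136). Neither passed for the difference of the effects between diets (adjusted p = 0.462 and 0.890). Slc44a1 was also 1.86-fold lower in HFD than in SD controls (adjusted p = 4.16e-05).

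Of the 4 genes for export and transfer of phosphatidylcholine and related lipids, 2 fell on each diet, against 2.94% of all tested genes on SD and 1.66% on HFD. Abcb4, the canalicular transporter that moves phosphatidylcholine into bile, was at 111.7, 97.3 and 110.8 CPM in SD controls and 55.0, 53.2 and 51.2 in SD libraries labelled knockout (2.01-fold lower, adjusted p = 0.000128). HFD controls held 114.3, 123.8, 117.1 and 104.3 CPM and HFD libraries labelled knockout 62.8 and 55.5 (1.94-fold lower, adjusted p = 0.000234). Pctp, the phosphatidylcholine transfer protein, had the largest fall of the listed genes on SD, from 99.2, 113.7 and 87.9 CPM to 28.3, 26.4 and 21.6 (3.93-fold lower, adjusted p = 0.000128). On HFD it was 2.17-fold lower (adjusted p = 0.00816), with libraries labelled knockout that differed from each other, at 66.0 and 36.3 CPM. Stard10, another lipid transfer protein, and Atp8b1, an aminophospholipid flippase, did not pass on either diet.

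Of the 5 genes of methyl donor supply and use, 2 fell on each diet, against 2.94% and 1.66% of all tested genes. The Pemt reaction draws on the same donor, S-adenosylmethionine, which 1 of these 2 genes makes and the other uses. Mat1a, which makes S-adenosylmethionine in liver, was at 1837, 1541 and 1630 CPM in SD controls and 1003, 621 and 518 in SD libraries labelled knockout (2.34-fold lower, adjusted p = 0.00178). On HFD it was 1.80-fold lower (adjusted p = 0.0403), a call lost in 5 of the 6 fits that leave out 1 library. Gnmt, which uses S-adenosylmethionine to methylate glycine, was 2.40-fold lower on SD (adjusted p = 0.000440) and 2.78-fold lower on HFD (adjusted p = 0.000314). Its controls, at 234 to 393 CPM over both diets, lay above all libraries labelled knockout, at 114 to 138. Ahcy, Bhmt and Nnmt did not pass on either diet.

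Among 9 tested turnover genes the directions differed. Etnppl, which degrades phosphoethanolamine, rose 1.88-fold on SD (adjusted p = 0.0285) and 2.01-fold on HFD (adjusted p = 0.0222). It was at 265, 257 and 241 CPM in SD controls and 607, 493 and 336 in SD libraries labelled knockout. Pnpla7, a lysophospholipase, fell by 0.85 on HFD (adjusted p = 0.00132) and had -0.43 on SD (adjusted p = 0.0637). Gpcpd1, which splits glycerophosphocholine, fell by 0.75 on HFD (adjusted p = 0.0141) and had -0.42 on SD (adjusted p = 0.115). Lpin1, a phosphatidate phosphatase that supplies diacylglycerol, rose 2.75-fold on SD (adjusted p = 0.0295), where its controls spread from 201 to 576 CPM and its libraries labelled knockout from 752 to 1209, and it had a log2 value of 0.02 on HFD. The difference of its effects between the diets, -1.44, did not pass (adjusted p = 0.561). Its mean over the diets, 0.74, did not pass either (adjusted p = 0.0915). In the CDP-diacylglycerol branch none of 5 passed on either diet, and Cds2, a CDP-diacylglycerol synthase, passed in the mean over the diets with -0.39 (adjusted p = 0.0149). Of all tested genes, 2.94% were called lower and 1.44% higher on SD. The shares were 1.66% and 1.04% on HFD, and 5.36% and 3.00% in the mean.

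Several of these calls rest on single libraries. With 1 library left out, the call was lost in 5 of 6 cases on SD for Etnppl and Lpin1 and in 3 for Slc44a3, with adjusted p up to 0.131, 0.155 and 0.0650, and in 5 of 6 cases on HFD for Mat1a, up to 0.227. On HFD the calls of Gpcpd1 and Etnppl were lost without the first library labelled knockout (adjusted p of 0.243 and 0.364), that of Etnppl also without the second or the fourth control (0.0733 and 0.0711), and that of Pctp without the second library labelled knockout (0.0859), where its log2 value moved from -1.12 to -0.74. These 3 were also lost when only the HFD groups were fitted, with adjusted p of 0.0578 to 0.0733, and Cds2 in the mean was lost without either HFD library labelled knockout (0.0514 and 0.0501). The calls of Abcb4 and Gnmt on both diets, of Slc44a1, Pctp and Mat1a on SD and of Pnpla7 on HFD were kept under each alternative fit and with each library left out. Other calls were gained. On SD, Pnpla7 passed after thinning (0.0303) and Cds2 without the first control (0.0359). On HFD, Slc44a3 passed with DESeq2 (0.0374) and without the filter (0.0229). In the mean, Lpin1 passed without the filter (0.00757), with the replicate block (0.0377) and without the first SD control (0.00469).

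**Figure D5:**
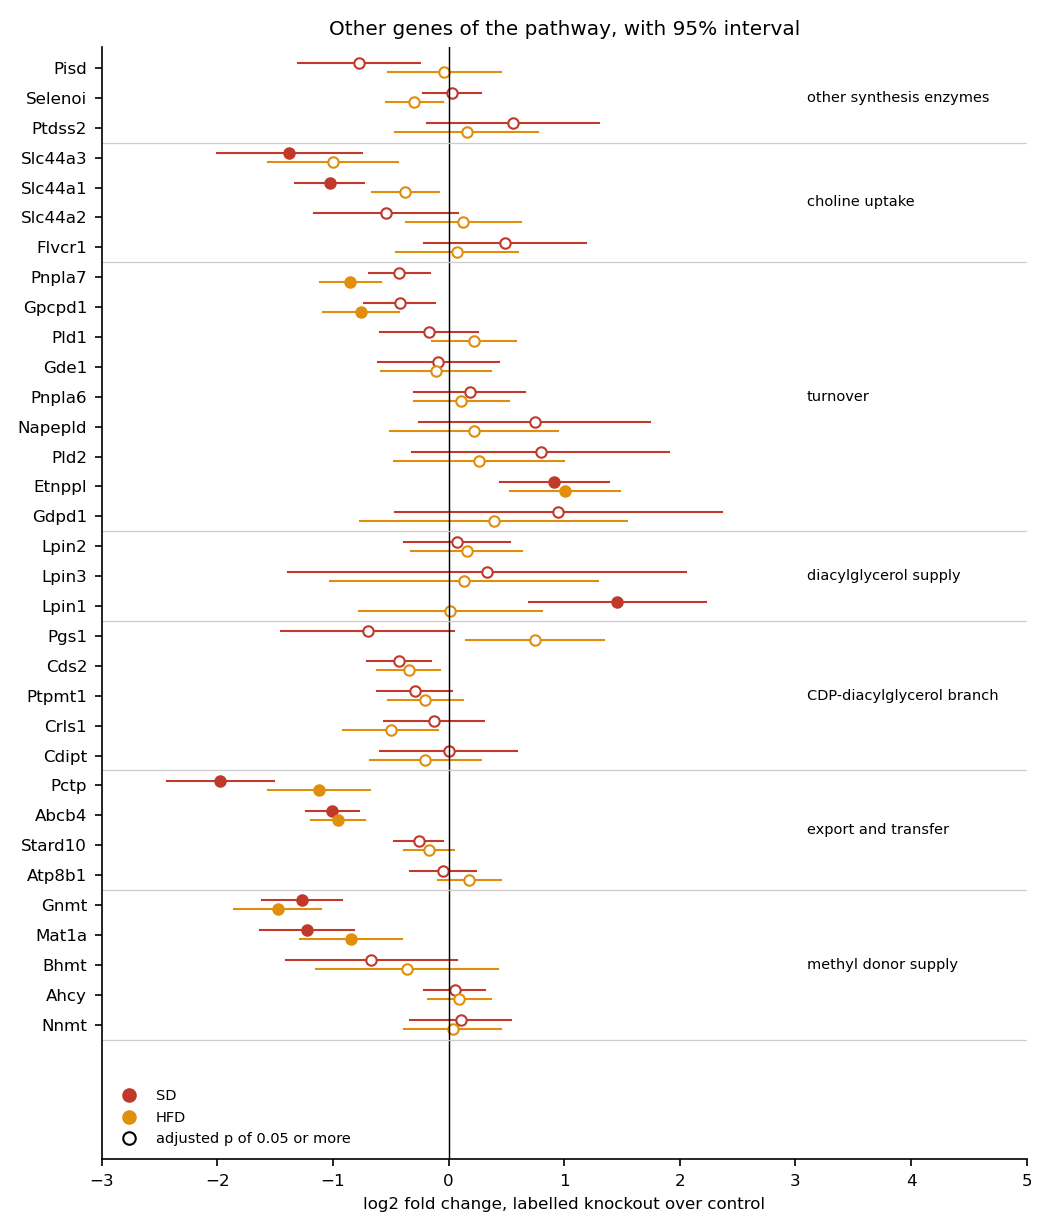
Log2 fold change, libraries labelled knockout over controls, of the 33 tested genes that supply, export or turn over the phospholipids, by list, on SD and on HFD, with 95% intervals. Filled points passed at an adjusted p under 0.05, among them Abcb4, Pctp, Gnmt and Mat1a on both diets.

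The genes whose levels ran most like those of Pemt were found by the Pearson correlation of log2 CPM, centred on the mean of each diet, over the 12 libraries. The 5 highest were Hgfac, the hepatocyte growth factor activator (r = 0.986), Serpina6, corticosteroid-binding globulin (0.984), Fbp1, a gluconeogenic enzyme (0.981), Mgst1, a microsomal glutathione transferase (0.980), and Marveld2, the tight junction protein tricellulin (0.979). Serpina6 measured 265, 398 and 312 CPM in SD controls, against 86.3, 66.4 and 62.7 in SD libraries labelled knockout. Among the other members r with Pemt was 0.932 for Pcyt1a, 0.860 for Etnk2, 0.569 for Cept1, 0.454 for Chkb and -0.601 for Pcyt2. The remaining 4 lay between -0.213 for Chka and 0.073 for Etnk1. The 12 points share their groups, so these values contain the difference between controls and libraries labelled knockout, and genes compared share each library.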

How the data were processed

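Liver RNA from 12 samples was sequenced from libraries made with a Nugen Ovation kit, per the labels' protocols. Per the submitters' processing notes, the tools named are TopHat2 2.1.0, HTSeq and DESeq2 1.14.1, and the build is mm9. The authors deposited raw counts per gene symbol. No source used here gives the strand setting, so reads of genes that overlap on opposite strands cannot be told apart. Samples were grouped by the labels. The test was the two-sided edgeR quasi-likelihood test (edgeR 4.0.16 and limma 3.58.1 in R 4.3.3): TMM, filterByExpr with a minimum count of 10, 4 group means in 1 fit of all 12 libraries, and Benjamini-Hochberg adjustment over 12015 genes, with calls at an adjusted p under 0.05. The common biological coefficient of variation was 0.153. SE were derived from the test statistic. Exon lengths came from GENCODE M21 on GRCm38, not the authors' build, and promoters from RefSeq. Named genes are the 10 members, Nr5a2, listed pathway genes called in a knockout comparison, the 5 genes of at least 5 CPM most like Pemt, and other members of those lists where a list's count is broken down. Genes that share exonic bases with a member are named where their level is given. The members and lists were chosen with earlier results of these data known. Of the listed pathway genes, 1 is not reported here. Alternatives were DESeq2 1.42.0, RLE size factors, no filter, only the groups compared, thinning to 2371167 counts, a replicate block, and each library left out; leaving Chkb out of the choline branch was chosen after seeing the data.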

Additional observations from a re-analysis of the deposited data

How the results depend on the processing

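In the mean over the diets, Pemt, Pcyt1a and Etnk2 were called lower under each alternative fit and with each library left out, and 0 members rose in any knockout comparison. Of 340 member values under alternative fits, 310 kept direction and call, 11 lost the call, 3 gained it, 16 uncalled values changed sign and 0 called values reversed. Of 480 values with 1 library left out the numbers were 416, 18, 3, 43 and 0. On HFD the number of members called lower, 2, was 0 with only the groups compared, 1 after thinning and 0 with the replicate block, and 0 to 3 with a library left out. Pemt had adjusted p of 0.0551 and 0.0642, and Pcyt1a 0.0655 and 0.0591, with only the groups compared and with the replicate block. After thinning Pcyt1a had 0.0680, and Etnk2 passed on HFD with DESeq2 (0.0394), without the filter (0.0230) and without the first HFD control (0.0213). Between diets in controls the 2 members called higher were 1 with DESeq2, with only the groups compared, after thinning and with the replicate block, and 1 to 2 with a library left out. A count of 2 did not always hold the same genes. Pemt lost its call and Chpt1 passed without the filter (Chpt1 adjusted p = 0.0378), without the first SD control (0.0249) and without the third HFD control (0.0292). In libraries labelled knockout the 1 called lower was 0 after thinning and 0 to 1 with a library left out.

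Over all genes, 526 were called on SD, and 220 to 498 with a library left out. On HFD 325 were called, 518 without the filter, 127 with only the groups compared and 85 to 602 with a library left out. For the mean the count was 1005, and 660 to 1222 with a library left out. Between diets in libraries labelled knockout it was 3196, and 1978 to 2733. For the difference of effects it was 0, and 30 with DESeq2, 17 without the filter, 1 with the replicate block and 0 to 4 with a library left out. A library left out leaves fewer samples, and the cause of the other shifts was not tested. The HFD difference of -0.43 in Pemt over the choline branch ran from -0.59 to -0.27 with a library left out. Whether the replicate numbers pair the samples was not settled. On SD, deviations from the group mean correlated at 0.052, 0.051 and -0.015 for same-numbered libraries, and at -0.066 to 0.018 for others. On HFD the same-numbered values were 0.126 and 0.013. With 2 HFD libraries labelled knockout, their deviations mirror each other (0.126 and -0.126 against the first control), so these values cannot decide the question. With the replicate block the rise of Pemt between diets in controls had an adjusted p of 0.114 and the HFD fall of Gpcpd1 0.0684. Chkb had 3 to 38 counts a library, the fewest of the 10 members.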
